A study of Sus scrofa with 2 samples.

Results

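Topologically associating domains (TADs) are stretches of chromatin whose contacts stay mostly within the stretch. In mammals they form largely by loop extrusion, in which the cohesin ring reels in chromatin until it meets the insulator protein CTCF bound in the facing orientation. A place where a domain ends and the next begins can therefore hold stops for extrusion from both sides, and a loop in a contact map is often the trace of 2 such stops meeting. Where many genes lie close together, such borders also tend to carry promoters of widely active genes.

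Here the edges shared by adjoining domains were described in the spleen of pig (Sus scrofa). The method was in situ Hi-C, which cuts fixed chromatin (here with DpnII), ligates ends that lie close together and sequences the joined pairs. There was a single group, spleen tissue, with 2 biological replicates, no treatment and no second tissue. The study's question was how transposable elements bear on genome folding, and repeats were not analysed here. An edge was counted as shared where the listed end of a domain lay 0 to 20 kb before the listed start of another, on chromosomes 1 to 18 and X.

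This gave 122 shared edges, made of 123 of 1910 distinct domain ends and 122 of 1909 distinct domain starts. They lay beside 239 of the 1923 listed domains, and 126 pairs of domains met at them. Of the edges, 6 lay inside a larger listed domain, and 17 had a domain beside them that overlapped another listed one. At 4 edges 2 domains came before the edge, and the shorter of them gives the size. At 3 of these 4 the 2 ended at the same position, and at the fourth, on chromosome 18, they ended 10 and 20 kb before the next start and the nearer end gives the distance. The distance between end and start was 0 kb at 5 edges, 10 kb at 50 and 20 kb at 67, on a grid of 10 kb. The edges were chosen by the called positions of domain ends and starts, so the distances and the sizes below are a description.

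Domains and loops were called on the same reads and given as 1 table each, so no value had a replicate and no difference below was tested. The intervals given are 95% exact binomial intervals and cover counting error alone. Hi-C tables hold no expression, and the tissue label could not be checked against cell type markers. The genome build is not named in the files. Genes were taken from the RefSeq table of Sscrofa11.1, and on the 18 autosomes the last domain end minus the last gene end ranged from -2.99 to 0.160 Mb. That table has no strand, so a gene end below is either annotated end of a protein-coding gene. The roles given for genes are those known from human and mouse.

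Shared edges were found on 17 of the 19 chromosomes searched. On autosomes there were 6.16 ± 2.53 shared edges per 100 domains (SD, n = 18 chromosomes). Chromosome 12 was highest with 8 edges among 85 domains (9.41 per 100), and chromosome 16 followed with 5 among 55 (9.09). Chromosome 17 had 2 among 66 (3.03), and chromosome 1 had the most edges, 15 among 212 domains. Chromosome 11 had 0 among 35 domains, a number that allows up to 8.57 per 100, and chromosome X had 0 among 15, which allows up to 20. These 2 limits are approximate, taken as 3 divided by the number of domains, and are not exact binomial limits.

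The domains that met at these edges were short, and a short domain often adjoined a longer one. The domain before the edge (at lower coordinates) had a median size of 230 kb (quartiles 180 and 350 kb), the shortest being 120 kb and the longest 1400 kb. The domain after it also had a median of 230 kb (quartiles 180 and 330 kb), the shortest being 140 kb and the longest 1830 kb. All 239 domains together had a median of 230 kb, against 260 kb for the 1684 domains with no shared edge. Across the 122 edges the 2 sizes showed little relation, with a Spearman's rho of -0.06 that is given as a description. The larger domain was a median of 1.61 times the size of the smaller, and at least 2 times at 45 edges. The larger was the one before the edge at 60 edges and the one after it at 61.

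A domain of 500 kb or more stood beside 30 of the edges, and at 1 of them both domains were that long. This was on chromosome 7, between 67130000 and 67150001, where domains of 1200 and 1340 kb met inside AKAP6, a gene for a protein that anchors protein kinase A in muscle and brain. No listed loop stopped at that edge. The most unequal pair lay on chromosome 2, where a domain of 230 kb met a domain of 1830 kb at 105330000 to 105350001, a ratio of 7.96, with no gene end and no loop. On chromosome 10 the ratio was 5.79 (140 and 810 kb, edge at 63790000 to 63810001). On chromosome 7 it was 5.62 (160 and 900 kb, edge at 85030000 to 85050001). On chromosome 1 it was 5.38 (260 and 1400 kb), at an edge from 148080000 to 148100001 that lay in ZNF516, a zinc finger gene. At the last 3 of these edges 1 or 2 loops reached the edge from the short domain and 0 from the long one.

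**Figure D1:**
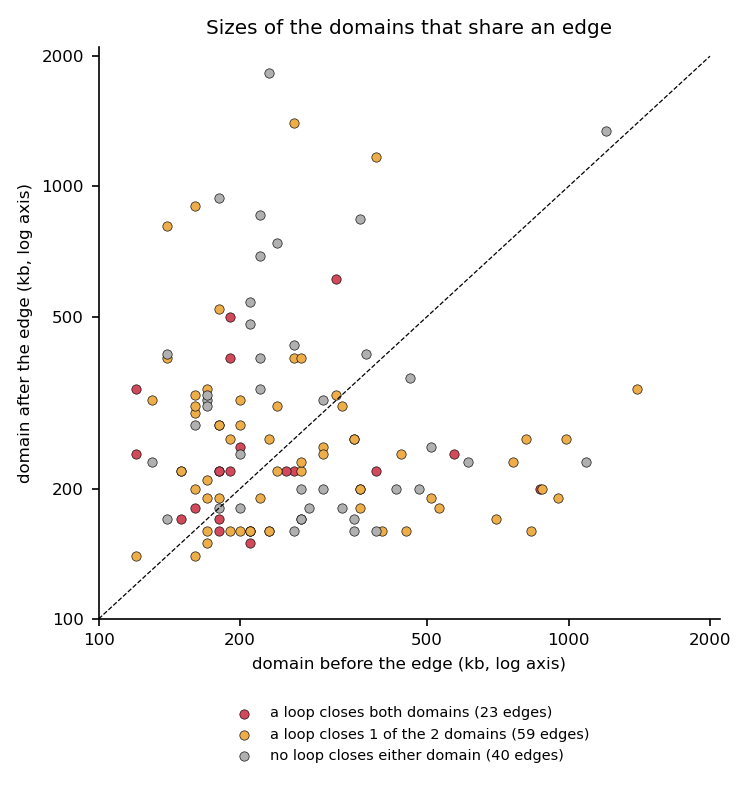
Each point is 1 of the 122 shared edges, with the size of the domain before the edge on the horizontal axis and that of the domain after it on the vertical axis (kb, log axes); the dashed line marks equal sizes. Colours mark edges where a listed loop closes both domains (23), 1 of the 2 (59) or neither (40), and 1 point, at 1200 and 1340 kb, has both sizes at 500 kb or more.

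Loops reached the shared edges from both directions. A loop was said to stop at a position when either of its 25 kb anchors came within 20 kb of it. A loop into the domain was one that ran to the domain's side of the position. It could have any length, so its far anchor could lie beyond the domain. Such a loop stopped at 77 of 123 shared ends (62.6%, 53.4 to 71.2%), against 790 of 1787 other ends (44.2%, 41.9 to 46.5%), and over all ends the share was 45.4%. For starts it was 73 of 122 shared starts (59.8%, 50.6 to 68.6%), against 682 of 1787 other starts (38.2%, 35.9 to 40.5%), with 39.5% over all starts. A loop leading away from the domain was found at 51 shared ends (41.5%, 32.7 to 50.7%), against 82 other ends (4.59%, 3.67 to 5.66%), with 6.96% over all ends. At starts it was found at 68 shared starts (55.7%, 46.5 to 64.7%), against 126 other starts (7.05%, 5.91 to 8.34%), with 10.2% over all starts. The rule places a second domain on the far side of each shared end and start, so a loop leading away can be a loop of that neighbour, and the sign of this difference is no finding. Some of these loops ran past the neighbour, such as those of 425 and 450 kb beside a domain of 330 kb.

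**Figure D2:**
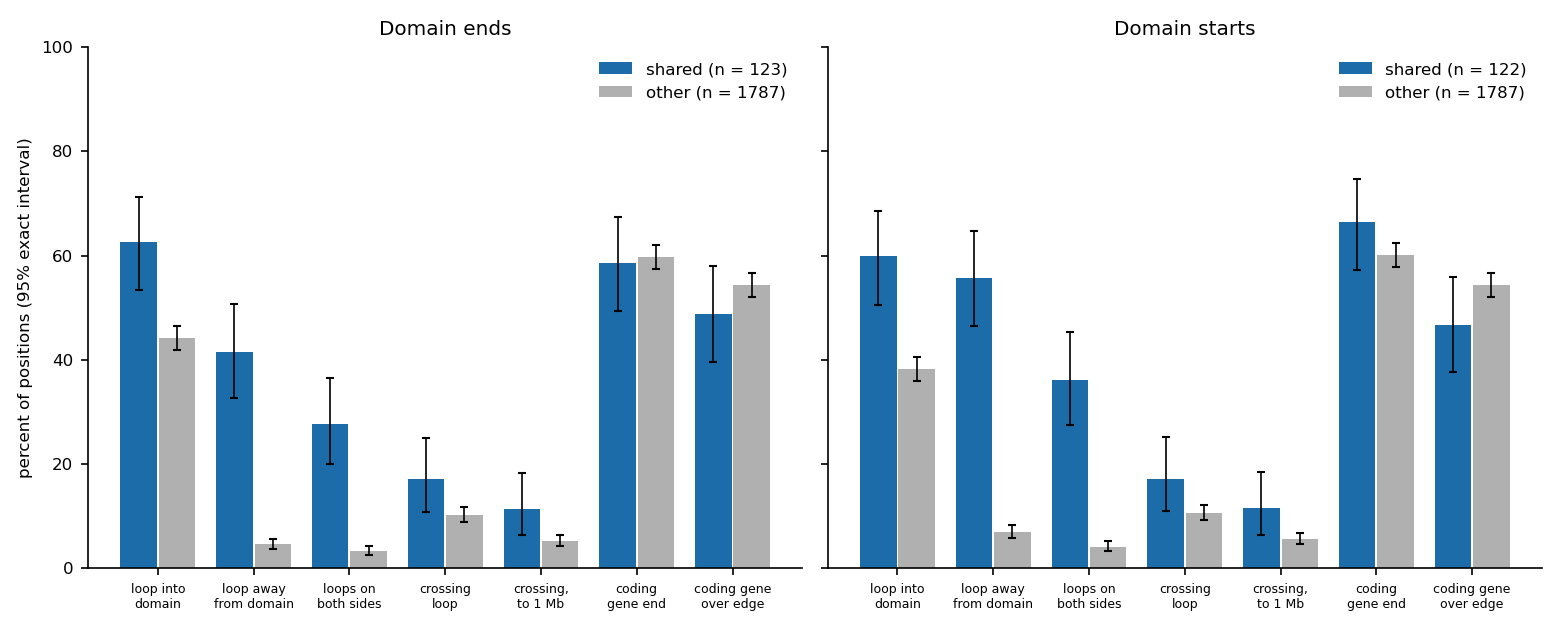
Bars give the percent of domain ends (left panel) and domain starts (right panel) with each feature within 20 kb, for shared positions (blue) and all other positions (grey), with 95% exact binomial intervals as black lines. Loops into the domain were found at 62.6% of shared ends and 59.8% of shared starts, and gene ends at 58.5% and 66.4%, beside 59.7% and 60.04% at other ends and starts. The rule places a neighbouring domain at each shared position, so the sign of the difference in loops away and on both sides is no finding.

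Taken as whole edges, with the stretch from the end to the next start widened by 20 kb on each side, 102 of 122 had a stopping loop (83.6%, 75.8 to 89.7%). This window is wider than that around a single end or start, for which the shares with any loop over all listed positions were 47.5% and 43.5%. At single positions the shares were 76.4% of shared ends, against 45.5% of other ends, and 79.5% of shared starts, against 41.1% of other starts. Any loop at a shared position can belong to the neighbour placed by the rule, so the rule gives part of this difference. Loops came from both sides at 47 edges (38.5%, 29.9 to 47.8%), from the side before the edge alone at 29 and from the side after it alone at 26. At single positions both sides were reached at 34 shared ends and 44 shared starts, with 4.87% and 6.18% over all ends and starts. Loops on both sides include a loop leading away from the domain, so the sign of this difference is no finding either. If the sides were filled independently with the shares seen, 45.5 edges would have had loops on both, near the 47 seen. Of the 47 edges with loops on both sides, 13 had a 25 kb bin that served as anchor in both directions. At the other 34 the nearest anchors were 25 or 50 kb apart, and that of the loop running to the left always lay first. The rule sets each end at or before the next start, so this order is in part given by the rule.

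By the distance between end and start, a loop stopped at 4 of 5 edges with 0 kb between them, at 43 of 50 with 10 kb (86.0%) and at 55 of 67 with 20 kb (82.1%). Just outside the rule, with 30 kb between, it was 47 of 59 (79.7%), and with 40 kb 41 of 63 (65.1%). Loops on both sides were found at 2 of the 5 edges with 0 kb, and at 46.0% of edges with 10 kb, 32.8% with 20 kb, 25.4% with 30 kb and 22.2% with 40 kb.

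In all, 257 of the 3298 loops on these chromosomes stopped at a shared edge (7.79%). Their median span was 200 kb, against 175 kb for the other 3041 loops, and their median observed count was 111 contacts, against 108. Observed over expected contacts had a median of 2.06 for the stopping loops, against 1.997 for the others. The lowest observed count was 55 contacts for the stopping loops, against 10 for the others, and the highest 295, against 371. An edge had a median of 2 stopping loops, with 20 edges at 0, 27 at 1, 35 at 2 and 10 at 5 or more.

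Of the stopping loops, 157 closed a domain, that is, they joined both of its edges. A loop closed the domain before the edge at 49 edges, the domain after it at 56, both at 23 (18.9%, 12.3 to 26.9%) and neither at 40. The product of the single shares corresponds to 22.5 edges with both closed. Counted by domain, 103 of 239 domains beside a shared edge were closed by a loop (43.1%, 36.7 to 49.6%), against 467 of 1684 other domains (27.7%, 25.6 to 29.9%), with 29.6% over all domains. Among the other domains the share closed was lower in longer ones, and the comparison was therefore also made by size. Among domains of up to 200 kb the shares were 46.7% beside shared edges, against 38.8% elsewhere, with overlapping intervals. From 210 to 300 kb they were 51.5% (39.0 to 63.8%), against 34.3% (30.5 to 38.3%). From 310 to 500 kb they were 39.2% (25.8 to 53.9%), against 20.8% (16.6 to 25.6%). Over 500 kb they were 17.9%, 5 of 28 domains (6.06 to 36.9%), against 3.50%, 10 of 286 (1.69 to 6.34%), and these intervals overlap.

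**Figure D3:**
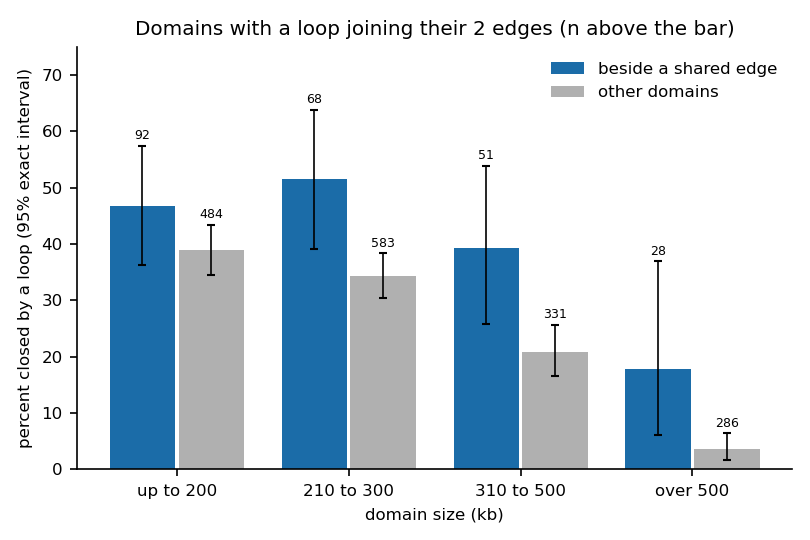
Bars give the percent of domains with a listed loop joining their 2 edges, by domain size in kb, for domains beside a shared edge (blue) and all other domains (grey), with 95% exact intervals and the number of domains above each bar. The blue bar is the higher in each of the 4 size classes, from 46.7% against 38.8% in the shortest to 17.9% against 3.50% in the longest.

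Loops that passed over a shared edge were few. A loop crossed when its anchors lay wholly on opposite sides of the widened edge. This was seen at 21 of 122 edges (17.2%, 11.0 to 25.1%), 16 of them with 1 such loop, 4 with 2 and 1 with 3. The number of distinct crossing loops was 26, where touching pixels of the contact map are listed as separate loops. With 1 pixel kept per group of touching pixels, 21 edges were still crossed. At single positions, 21 of 123 shared ends were crossed (17.1%, 10.9 to 24.9%), against 184 of 1787 other ends (10.3%, 8.93 to 11.8%), with 10.7% over all ends. For starts it was 21 of 122 (17.2%), against 190 of 1787 (10.6%, 9.24 to 12.2%), with 11.1% over all starts. The intervals overlap at both. With crossing loops of at most 1 Mb alone, the shares were 11.4% of shared ends, against 5.26% of other ends, with 5.65% over all ends. They were 11.5% of shared starts, against 5.65% of other starts, with 6.02% over all starts. In the loops of lowest FDR, which leave 1617 loops on these chromosomes, 9 edges were crossed (7.38%), and the shares at shared and other positions then differed by 1.61 percentage points at ends and 1.56 at starts.

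The crossing loops fell into short and long ones. The 16 of at most 1 Mb spanned 325 to 700 kb and had 35 to 113 observed contacts (median 69.5), 1.76 to 3.06 times the expected number. The 10 longer ones spanned 1250 to 6325 kb with 14 to 50 observed contacts (median 21), at 3.42 to 122 times the expected number. Crossing did not exclude stopping, and at 19 of the 21 crossed edges a loop also stopped. The domains at edges crossed by a loop of at most 1 Mb had a median summed size of 425 kb, beside 520 kb at the 101 edges with no crossing loop.

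At 7 edges a crossing loop joined the far corners of the 2 domains, from the start of the first to the end of the second, 9 loops in all with 65 to 113 contacts. The edge with the most listed crossing loops lay on chromosome 13 at 132100000, between domains of 450 and 160 kb, inside XXYLT1, a xylosyltransferase that modifies Notch receptors. Its 3 crossing loops, which are touching pixels, had 108, 97 and 113 contacts over 575 to 625 kb. They ran from the neighbourhood of FAM43A and LSG1, a GTPase of ribosome assembly, to that of ACAP2, a GTPase-activating protein for ARF6. The first domain was also closed by 2 loops with 92 and 126 contacts, so that loops from the same left corner stopped at the edge and passed over it.

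At the edge on chromosome 4 from 8090000 to 8110001, in WISP1, a secreted growth regulator of the CCN family, 2 loops of 110 and 101 contacts closed the domain before the edge. Another 2 of 65 and 66 contacts, which are touching pixels, passed over it. The first of these led from ST3GAL1, a sialyltransferase, to an anchor with ends of PHF20L1 and of TG, the precursor of thyroid hormone. On chromosome 5 at 8300000 to 8320001, near TNRC6B, a partner of Argonaute proteins, and FAM83F, a loop of 700 kb with 72 contacts crossed. It joined ADSL, an enzyme of purine synthesis, to the anchor of ATF4, the transcription factor of the stress response. Loops of 129 and 113 contacts closed the second domain there.

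Other edges were crossed by 1 loop of at most 1 Mb each. The edge on chromosome 3 from 92520000 to 92530001 had a crossing loop of 93 contacts and 4 stopping loops of 93 to 108 contacts. On chromosome 1 at 252860000 to 252870001, in SUSD1, the crossing loop had 75 contacts, and on chromosome 14 at 114790000 to 114810001, near STN1, a subunit of the telomere-capping CST complex, and SH3PXD2A, it had 70. On chromosome 5 at 87310000, in ELK3, an ETS family transcription factor, a loop of 350 kb with 69 contacts crossed, as did a loop of 2975 kb with 32. A loop of 2950 kb, a touching pixel of the one of 2975 kb, counted as stopping at this edge. It had 101 contacts against 5.91 expected, the highest ratio among the 257 stopping loops (17.1). Its left anchor, from 87275001 to 87300000, lay before the edge but within 20 kb of it. This loop therefore also ran over the edge itself.

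**Figure D4:**
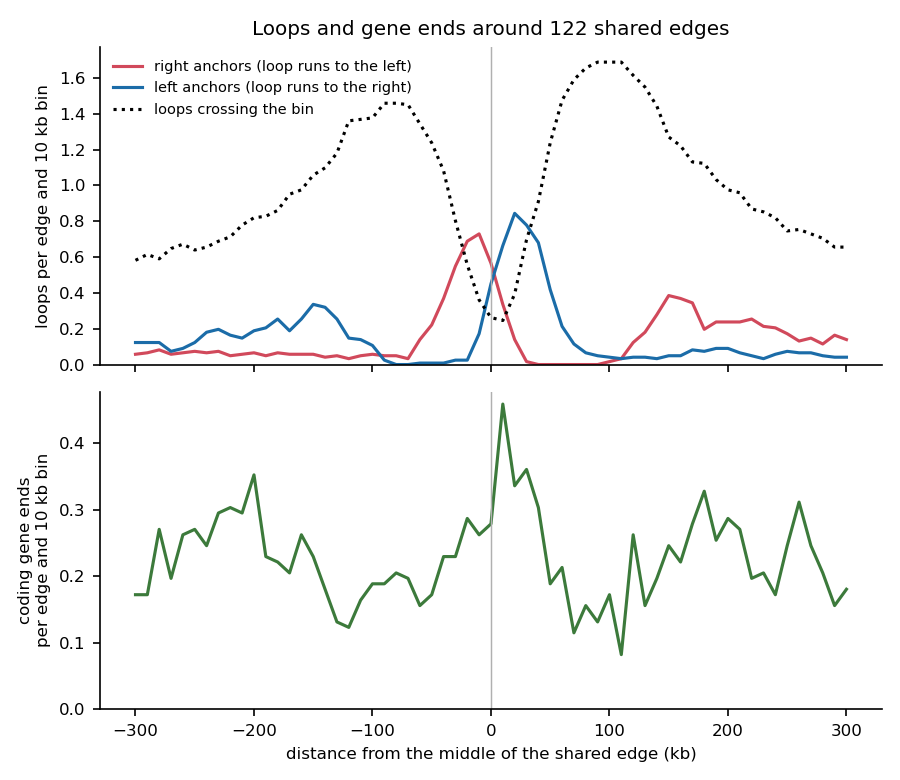
The upper panel gives, in bins of 10 kb around the middle of the 122 shared edges, the mean number of right loop anchors (red, loops running to the left), left loop anchors (blue, loops running to the right) and loops crossing the bin (dotted) per edge; the lower panel gives protein-coding gene ends. Red peaks at 0.730 in the bin 10 kb before the middle, blue at 0.844 in the bin 20 kb after it, and crossing loops are lowest at 0.246 in the bin 10 kb after it. The order of the red and blue peaks is in part given by the rule.

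The 10 edges with the most stopping loops had 5 to 9 each, all of them with loops on both sides and none with a crossing loop. Pixels that touch count as separate loops in the list, and once these were merged the same edges had 2 to 4. In the loops of lowest FDR they had 1 to 6.

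First among them was the edge on chromosome 18 from 38060000 to 38070001, between domains of 250 and 220 kb, at SEPT7, a septin that forms filaments with other septins. Loops running to the left had 99, 141, 122, 117 and 120 contacts, and 4 of the 5 closed the first domain, at whose far edge EEPD1 has an end. Loops running to the right had 111, 107, 124 and 90 contacts, and 3 of them closed the second domain, with HERPUD2 at a far anchor. As groups of touching pixels there were 4.

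The next edge, on chromosome 16 from 51270000 to 51290001, held ends of ERGIC1, RPL26L1 and ATP6V0E1, a subunit of the vacuolar proton pump. It had 2 loops to the left with 122 and 134 contacts and 5 to the right with 114 to 147. A far anchor of these held DUSP1, a phosphatase of MAP kinases. On chromosome 14, the edge from 120730000 to 120750001 lay at SMNDC1, a splicing factor, inside which the first domain ended, with an end of MXI1, a repressor that competes with MYC for its partner MAX, just before it. Its 2 loops to the left had 121 and 110 contacts and led to ADD3, an adducin of the membrane skeleton. Its 4 loops to the right had 144, 126, 151 and 149 contacts, and 2 of them reached an end of SMC3, a subunit of cohesin itself. Also on chromosome 14, the edge from 46050000 to 46060001 had no gene end, and its 6 loops, of 93 to 134 contacts, closed both domains, of 180 and 170 kb. Far anchors on the right held ends of ZNRF3, a ligase that removes Wnt receptors.

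On chromosome 16 at 68550000 to 68560001, again with no gene end, 2 loops with 152 and 131 contacts led left, the first to LARP1, a regulator of the translation of ribosomal protein mRNAs. Another 4, with 93 to 119 contacts, led right, to SAP30L, GALNT10 and HAND1. On chromosome 13 the edge from 132260000 to 132270001, at XXYLT1 and ACAP2, had 3 loops to the left, the same 3 that crossed the edge at 132100000. It had 2 to the right with 110 and 114 contacts, both reaching PPP1R2, an inhibitor of protein phosphatase 1. On chromosome 1 the edge from 158610000 to 158630001, at PHLPP1, a phosphatase of the kinase AKT, had loops of 93 and 101 contacts to the left. The second led to an anchor with ends of KDSR and of BCL2, the inhibitor of apoptosis. Its 3 loops to the right had 97 to 118 contacts.

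The remaining edges of this group were on chromosome 7 at 98290000 (described below), on chromosome 3 from 102020000 to 102040001 and on chromosome 1 from 114640000 to 114660001. That on chromosome 3, at ATL2, an atlastin that shapes the endoplasmic reticulum, had loops of 59 to 96 contacts to the left and 92 and 108 to the right. That on chromosome 1, at CGNL1, a protein of cell junctions, had 68 and 77 to the left and 76 to 80 to the right, where 2 of them began at an anchor with an end of TCF12, a basic helix-loop-helix factor.

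Where a loop closed each of the 2 domains, the closing loops had 127 to 804 contacts in sum (median 276, 23 edges), and 5 of the 23 edges were also crossed. The edges at SEPT7, at SMNDC1, at ATL2 and at the chromosome 14 site with ZNRF3 were among them. On chromosome 10, at 27740000 to 27750001, near an end of DAPK1, a kinase of cell death, 3 loops of 119, 227 and 168 contacts closed a first domain of 120 kb. They led to FBP1 and FBP2, which encode fructose bisphosphatases. A loop of 110 contacts closed the second domain, of 340 kb, and a corner-to-corner loop had 70 contacts. On chromosome 1 at 8240000 to 8260001, at RSPH3, a protein of the ciliary radial spoke, a loop of 161 contacts closed the first domain and 3 of 117 to 135 closed the second. On chromosome 3 at 97170000 to 97190001 the edge lay in THADA, with an end of ZFP36L2, which destabilises mRNAs and acts in lymphocyte development, nearby. Closing loops there had 116 and 139 contacts on the left and 126 and 113 on the right.

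On chromosome 1 at 251170000 to 251190001, in AKAP2, which anchors protein kinase A, closing loops had 146 and 94 contacts on the left and 94 and 89 on the right. On chromosome 4 at 124170000 to 124190001, with no gene end, they had 90 contacts on the left and 131 and 172 on the right. On chromosome 7 at 92520000 to 92540001, at ACTN1, an alpha-actinin that crosslinks actin, a loop of 550 kb with 107 contacts closed a first domain of 570 kb, and 2 loops with 124 and 140 closed the second. On chromosome 2 at 60600000 to 60610001, at HAUS8, a subunit of the augmin complex of the spindle, a loop of 182 contacts closed the first domain and a loop of 94 the second.

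Some domains followed each other without a break. There were 8 runs with more than 1 shared edge, of which 7 held 3 domains and the run on chromosome 5 held 4. The run on chromosome 7, from 98090001 to 98660000, joined domains of 200, 160 and 180 kb. Its first edge, from 98290000 to 98310001, lay in NEK9, a kinase of mitosis, with ends of ZC2HC1C and TMED10, a receptor of vesicle traffic. Its second, from 98470000 to 98480001, lay at an end of FOS, a subunit of the transcription factor AP-1. The loop that closed the middle domain joined TMED10 to FOS with 295 contacts against 110 expected, the highest count among the stopping loops. Loops beside it had 249 and 246 contacts. A loop with 118 contacts led from the FOS edge to an anchor with an end of BATF, a lymphocyte relative of FOS, and a loop of 67 contacts passed over FOS from TMED10 to BATF.

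The run on chromosome 5, from 8030001 to 9060000, held domains of 270, 400, 160 and 140 kb. Its edges lay at TNRC6B and FAM83F, at RPS19BP1, ATF4 and MIEF1, and at SYNGR1 and RPL3. The edge at ATF4 had 3 loops to the left, of 72, 129 and 113 contacts, and 1 to the right, of 169. From the edge at RPL3, a ribosomal protein, 2 loops of 172 and 175 contacts ran to the right. The second reached CBX7, a Polycomb protein. On chromosome 13, from 131650001 to 132550000, domains of 450, 160 and 280 kb shared the 2 edges at XXYLT1 described above. On chromosome 4, from 126700001 to 127480000, domains of 200, 240 and 310 kb met at LRRC8D and at LRRC8B, which encode subunits of volume-regulated anion channels.

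The other 4 runs held either very long or very short domains. On chromosome 1, from 147820001 to 149860000, a domain of 1400 kb lay between domains of 260 and 340 kb, and the second edge was at ZNF407 and CNDP1. On chromosome 2, from 103990001 to 107180000, a domain of 230 kb lay between domains of 1090 and 1830 kb. No loop stopped at its 2 edges, the first of which was at RGMB and CHD1, a chromatin remodeller. On chromosome 10, from 63650001 to 64890000, the sizes were 140, 810 and 260 kb. On chromosome 12, from 4260001 to 4730000, they were 120, 140 and 170 kb, and a loop of 475 kb with 35 contacts passed over both edges.

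**Figure D5:**
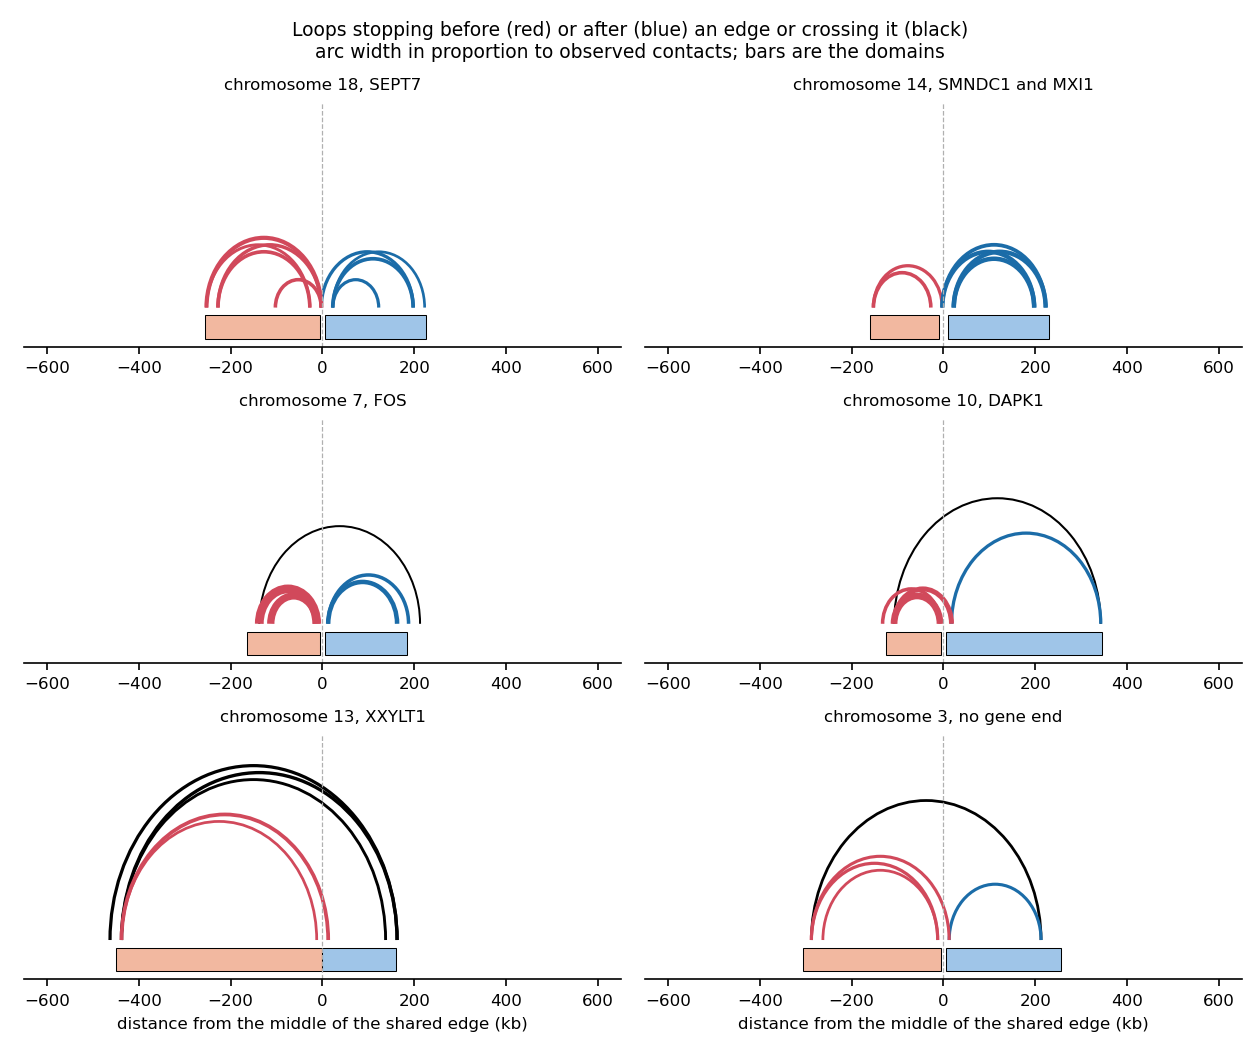
Domains (bars) and loops (arcs) at 6 shared edges, against distance from the middle of the edge in kb. Red arcs stop at the edge from the side before it, blue from the side after it, and black arcs cross; arc width is in proportion to observed contacts, and loops over 1 Mb are left out. The edges at SEPT7 and at SMNDC1 have no black arc, and the edge in XXYLT1 has 3.

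The shares of shared and of other domain edges with a gene end had overlapping intervals. A protein-coding gene end lay within 20 kb of 72 of 123 shared ends (58.5%, 49.3 to 67.3%), against 1066 of 1787 other ends (59.7%, 57.3 to 61.9%), with 59.6% over all ends. It lay within 20 kb of 81 of 122 shared starts (66.4%, 57.3 to 74.7%), against 1073 of 1787 other starts (60.04%, 57.7 to 62.3%), with 60.5% over all starts. The number of gene ends averaged 1.22 per shared end and 1.39 per shared start, against 1.32 per other end and 1.32 per other start. Around the edges, the most gene ends were in the bin 10 kb after the middle, 0.459 per edge, with 0.262 in the bin 10 kb before it.

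Taken as whole edges, 87 of 122 had a gene end (71.3%, 62.4 to 79.1%) and 50 had ends of 2 or more genes. This window is wider than that around a single end or start, so the share is not comparable with those above. Just outside the rule, where the window is wider still, the shares were 79.7% with 30 kb between end and start and 85.7% with 40 kb. In all, 164 of 19484 protein-coding genes had an end at a shared edge (0.842%). Ends of lncRNA genes lay at 25 edges (31 of 5399 genes, 0.574%), of pseudogenes at 6 (7 of 2263, 0.309%), of a miRNA gene at 1 (1 of 307, 0.326%), and of tRNA genes at 0 (0 of 448). Loops stopped at 74 of the 87 edges with a gene end (85.1%, 75.8 to 91.8%) and at 28 of the 35 without (80%, 63.1 to 91.6%). Loops on both sides were found at 41.4% and 31.4% of these, with overlapping intervals (30.9 to 52.4% and 16.9 to 49.3%).

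The edge with the most gene ends, 8, lay on chromosome 3 from 8370000 to 8380001. PPP1R35, a centrosomal protein, MEPCE, a capping enzyme of the 7SK RNA, and ZCWPW1, a reader of histone methylation in meiosis, were the closest named genes, with 2 unnamed ones nearer than ZCWPW1. It had a loop of 133 contacts to the left and loops of 131 and 106 to the right. On chromosome 5 the edge from 18720000 to 18730001 had 7, with ATF7, a CREB-related factor, NPFF, a neuropeptide, and TARBP2, a partner of Dicer, closest, and loops of 132 contacts on each side. On chromosome 4, from 98220000 to 98240001, the 7 ends included ANXA9, MINDY1 and PRUNE1, with no loop. The edges with 6 gene ends were 4. They lay at RPS19BP1, ATF4 and MIEF1, at PITPNM2, ARL6IP4 and OGFOD2 on chromosome 14 (no loop), at CD3G, UBE4A and CD3D on chromosome 9, and at NLE1, UNC45B, a chaperone of myosin, and FNDC8 on chromosome 12 (3 loops of 55 to 146 contacts).

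Genes also ran across the edges. At 38 edges (31.1%, 23.1 to 40.2%) a protein-coding gene covered both the end and the start. At single positions a gene lay over 60 of 123 shared ends (48.8%, 39.7 to 58.0%), against 972 of 1787 other ends (54.4%), with 54% over all ends. It lay over 57 of 122 shared starts (46.7%, 37.6 to 56.0%), against 972 of 1787 other starts (54.4%), with 53.9% over all starts. The 38 genes across an edge had a median length of 168 kb, beside 20.7 kb for all protein-coding genes, and 26 were 100 kb or longer. A long gene is more likely to lie over any position, so this difference follows from the choice of genes and is no finding. Lengths of genes over other domain ends and starts were not compared. A loop stopped at 29 of the 38 edges under a gene (76.3%, 59.8 to 88.6%) and at 73 of the other 84 (86.9%, 77.8 to 93.3%).

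At 18 edges the gene covered the whole widened window, and its median length was 323 kb. These genes are named here because of their place, seen in the data. ARHGAP24, a GTPase-activating protein for Rac, was 744 kb long, with 208 kb before its edge and 516 kb after it. ALK, a receptor tyrosine kinase of the nervous system, had 639 kb before and 35.8 kb after. AKAP6 had 216 and 312 kb, CUX2, a neuronal homeobox factor, had 228 and 37.2 kb, and GTF2E2, a subunit of TFIIE, had 25.5 and 45.6 kb. None of these 5 edges had a stopping loop, and the other 13 of the 18 had one. RABGAP1L, a regulator of Rab GTPases, had 458 and 200 kb, and PIK3R1, the regulatory subunit of PI3-kinase used by lymphocyte antigen receptors, had 45.2 and 23.6 kb. At both, a loop closed each domain, with 79 and 78 contacts at RABGAP1L and 64 and 101 at PIK3R1. The edge in PIK3R1 lay on chromosome 16 between domains of 870 and 200 kb.

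No stopping loop was listed at 20 edges. Of these, 13 had a gene end, 9 lay under a gene and 2 were crossed by a loop. The domains there had a median summed size of 590 kb, beside 490 kb at the 102 edges with a stopping loop.

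Of the T cell, B cell and macrophage genes searched for, the CD3 genes, BCL6 and CEBPB lay at shared edges. Across 14 lists of cell type, immune and general functions, 401 of 416 entries matched a gene and 7 of these had an end at a shared edge, beside 0.842% of all protein-coding genes. The T and NK cell list had 3 of 31 (9.68%, 2.04 to 25.8%), and all 3 were neighbours at the same edge, CD3G, CD3D and CD3E on chromosome 9 from 45650000 to 45670001. These genes encode the signalling chains of the T cell receptor. Their edge lay between domains of 200 and 180 kb, inside a larger listed domain, and had 2 loops, both to the right, with 160 and 183 contacts. The B cell list had 1 of 17, BCL6, a transcriptional repressor needed by germinal centre B cells, on chromosome 13 from 125360000 to 125380001. A domain of 390 kb met a domain of 1170 kb there. From BCL6, loops of 77 and 85 contacts spanned 1125 and 1150 kb to the right, and the longer closed that domain. A loop of 93 contacts ran 300 kb to the left.

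The macrophage list had 1 of 22, CEBPB, a transcription factor of myeloid cells, on chromosome 17 from 51690000 to 51710001. Its 4 loops, of 164, 149, 141 and 141 contacts, all closed the domain after it, and as touching pixels they form a single group. Of genes that silence transposable elements, SETDB1, a histone methyltransferase, was the 1 of 24, at the edge of PRUNE1 without a loop. Of 66 ribosomal proteins RPL3 was the 1. The lists of plasma cells (12), erythroid cells (14), stroma and vessels (18), interferon response (25), NF-kB signalling (21), chromatin architecture (28), housekeeping (33), developmental transcription factors (61) and neurons (29) had 0 members at a shared edge. The exact interval for a count of 0 reaches 5.87% in the largest of these lists and 26.5% in the smallest.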

How the data were processed

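In situ Hi-C of pig spleen was sequenced from 2 biological replicates, and the authors deposited 1 table of domains and 1 of loops. The sources used here do not name the domain caller or say whether replicates were pooled. The submitters' processing notes name HiC-Pro 3.1.0; per the file headers, juicer_tools 1.9.9 made the loop table. The deposited loop table gives observed contacts as raw counts, an expected signal in the same unit and FDR values, which are q-values, per the file headers. Depth per replicate is unknown here, so counts per loop are the sole measure of precision.

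Shared edges, loops and gene ends were found with Python 3.11.15, pandas 2.3.3 and NumPy 2.4.6. Shares have 95% exact (Clopper-Pearson) intervals from SciPy 1.17.1, which cover counting error and take neighbouring positions as independent. No test was made, because no value exists per replicate. The searches were tested on simulated data. Genes named were those at the edges with the most stopping loops, crossing loops or gene ends, the largest size ratio, a loop closing each domain, runs of domains, and members of 14 lists (up to 3 genes within 20 kb of an edge, and up to 4 per list); genes named outside these were chosen after their values were seen. A tie for the fifth place by gene ends was kept whole. One edge that this rule names is not reported here. The edges, lists and measures were chosen with earlier results of these data known. Loops were ranked by the highest of their 4 FDRs. Other distances, widths, loop sets and gene sets were tried as alternatives.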

Additional observations from a re-analysis of the deposited data

How the results depend on the processing

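No paired analysis was possible because both tables cover the series as a whole and hold no value per replicate, and for the same reason no replicate could be left out. With the largest distance between end and start set at 0, 10 and 40 kb there were 5, 55 and 244 shared edges in place of 122, and at 10 kb the domains after the edge had a median of 210 kb. Loops on both sides were found at 27.0% of edges with 10 kb of widening, 49.2% with 40 kb, 27.0% with the middle of the anchor and 18.9% in the loops of lowest FDR. The middle of the anchor and 10 kb of widening gave the same value for every loop measure. They are not independent alternatives, though both are counted in the totals below. In those loops of lowest FDR a loop stopped at 60.7% of edges and crossed 7.38%. A gene end lay at 59.8% of edges with 10 kb of widening, 86.9% with 40 kb, 79.5% with all annotated genes, and 84.4% with whole gene spans counted in place of ends. These follow from the wider or narrower windows and the smaller or larger sets. In all, 68 of 90 alternative values stayed near the reported one, and 22 did not. The difference between shared and other positions in loops into the domain and in crossing loops was above 0 in 28 of 28 alternatives; for loops away from the domain the rule fixes the sign. The difference in gene ends was -1.12 percentage points at domain ends (-7.85 to 6.05 over the alternatives) and 6.35 at starts (1.41 to 8.54). Contacts per loop limit precision, with 14 to 50 for the long crossing loops.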
